A study of Mus musculus with 6 samples.

Results

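The genes described here are the repressor *Cic*, the genes of its 2 ataxin-1 family partners, *Atxn1l* and *Atxn1*, and 7 genes that are known targets of CIC and respond to ERK signalling: *Etv1*, *Etv4*, *Etv5*, *Dusp4*, *Dusp6*, *Spry4* and *Spred1*. They were taken from the table of gene counts by their Ensembl identifiers, and all 10 of the 10 listed genes were found among 35565 identifiers. The list was chosen by the measured difference between the groups as well as by function, so the differences of these 10 genes are given as a description, with no test. The samples were mouse gastruloids, aggregates of embryonic stem cells (ESCs) that elongate and form some of the cell types of the early body axis, collected at day 5. Control (NT), with 3 libraries, came from ESCs that carry a non-targeting construct (the sample labels call them wild type). *T-UCstem1* KD-1, also with 3 libraries, came from a single ESC clone in which the ultraconserved long non-coding RNA *T-UCstem1* is knocked down. Both groups derive from the TBV2 ESC line of 129/SvP mice, were grown with LIF and 2i (which includes an inhibitor of the ERK kinase MEK) before aggregation, and received a pulse of 3 µM CHIR99021, a GSK3 inhibitor, after it. Each group comes from a single line, so the silencing and any other difference between the lines cannot be told apart.

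CIC is a DNA-binding repressor that sits at the end of the receptor tyrosine kinase pathway. It binds short octamers in the promoters and enhancers of its target genes together with ataxin-1 or ataxin-1-like, which stabilise it, and phosphorylation by ERK relieves the repression, so that CIC targets are commonly read as outputs of ERK signalling. Among the targets are the PEA3 transcription factors (*Etv1*, *Etv4*, *Etv5*) and genes that feed back on the pathway (dual-specificity phosphatases, Sprouty and Spred proteins). In mouse ESCs, FGF signalling through ERK drives the exit from naive pluripotency, and in the tail bud it maintains the presomitic mesoderm.

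Since CIC acts through short DNA sequences, the promoters of the genes were read first. Promoter sequences, from 250 bases before to 50 bases after a start site, were taken from RefSeq (GRCm38.p6), where 9 promoters of 6 of the 10 genes were found: *Spred1*, *Cic*, *Atxn1l*, *Dusp6*, *Etv1* and *Etv5*. *Atxn1*, *Etv4*, *Dusp4* and *Spry4* had no entry. The CIC octamers TGAATGAA, TGAATGGA, TCAATGAA and TCAATGGA were searched on both strands. Of 32851 promoters in the table, 3.84% held at least 1 match and 0.183% held 2 or more. Of the 9 promoters, only that of *Dusp6* held a match, and it held 2, both TCAATGGA on the strand opposite to the gene. The 6-letter core TGAATG, searched after the promoters had been read and overlapping 2 of the octamers, was present in 12.7% of all promoters and in those of *Dusp6*, *Atxn1l* and *Etv5*. One of the *Etv5* promoters held 3 copies of it, and 0.17% of all promoters held 3 or more. The 3 sequences are printed because they hold these matches. Each runs 5′ to 3′ on the gene's own strand and ends 25 bases after the start, the capitals mark the matches, and a match on the opposite strand appears as its reverse complement (TCCATTGA or CATTCA). A match is a string of letters and not a measured binding site.
Dusp6, chr10:99262981-99263255, plus strand: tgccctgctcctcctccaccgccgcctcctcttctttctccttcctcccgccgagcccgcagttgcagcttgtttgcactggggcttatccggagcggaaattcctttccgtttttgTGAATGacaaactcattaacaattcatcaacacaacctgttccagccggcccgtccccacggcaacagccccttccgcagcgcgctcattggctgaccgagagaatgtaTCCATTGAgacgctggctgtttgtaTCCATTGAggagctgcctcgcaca
Etv5, chr16:22438344-22438618, minus strand: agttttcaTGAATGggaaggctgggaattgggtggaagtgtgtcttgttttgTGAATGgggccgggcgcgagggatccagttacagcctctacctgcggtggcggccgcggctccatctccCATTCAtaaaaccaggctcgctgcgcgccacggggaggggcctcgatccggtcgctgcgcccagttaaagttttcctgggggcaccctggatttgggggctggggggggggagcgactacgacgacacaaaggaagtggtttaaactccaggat
Atxn1l, chr8:109737756-109738030, minus strand: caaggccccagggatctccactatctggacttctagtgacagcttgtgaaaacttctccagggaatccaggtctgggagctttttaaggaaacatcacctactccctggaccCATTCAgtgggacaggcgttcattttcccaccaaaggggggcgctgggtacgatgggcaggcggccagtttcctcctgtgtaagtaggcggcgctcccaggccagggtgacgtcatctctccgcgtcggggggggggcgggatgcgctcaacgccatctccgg
*Dusp6* thus carried both octamers close to its start, at bases 227 to 234 and 252 to 259 of the window, and the core at bases 118 to 123. The cores of *Etv5* lay farther upstream, at bases 9 to 14, 53 to 58 and 122 to 127, and that of *Atxn1l* at bases 113 to 118.

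The libraries held 20982249, 34694406 and 56674906 counts in Control (NT) and 41180012, 42407550 and 85561026 counts in KD-1. The columns of the table name the group of each library but do not carry the replicate numbers of the labels, and the libraries are told apart here by depth (shallowest, middle and deepest of each group), the order in which values are given. Levels are in CPM, counts scaled to a common library size after TMM normalization, edgeR's correction for composition, and spreads are the SD over 3 libraries. The middle Control (NT) library stood apart from the others of its group: its counts differed from them by a chi-square of 36.3 and 36.5 per degree of freedom, against 15.3 between the shallowest and the deepest. The 3 KD-1 pairs had 7.62, 11.1 and 4.85. No pair agreed within sampling noise, and each library was counted as 1 sample. Without the middle Control (NT) library the log2 fold changes of the 10 genes kept their signs, at 8.49 for *Atxn1l*, 1.29 for *Atxn1*, -0.86 for *Cic*, -0.16 for *Etv1*, -1.08 for *Etv4*, 0.96 for *Etv5*, 0.55 for *Dusp4*, -0.81 for *Dusp6*, 1.32 for *Spry4* and 0.89 for *Spred1*. The series describes the replicates as biological, without naming what was separate. Expression was measured in whole gastruloids, where fewer cells of a type and less RNA per cell cannot be told apart.

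A call required a fold change of more than 1.5 in either direction and an adjusted p under 0.05 by edgeR's quasi-likelihood test, with Benjamini-Hochberg adjustment over all genes in the fit. All 10 genes passed the filter on low counts. Of them, 8 were past both thresholds, 5 higher and 3 lower in KD-1 libraries. The background was high: calls covered 37.7% of the 15110 tested genes, with 19.7% of them higher and 18.1% lower. The libraries of both groups were fully separate for 9 of the 10 genes, with no overlap between the groups for 70.6% of all genes tested. The list was selected on this contrast, and nothing is read from these counts. Their log2 fold changes had a median of 0.72, and those of all genes tested -0.01.

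**Figure D1:**
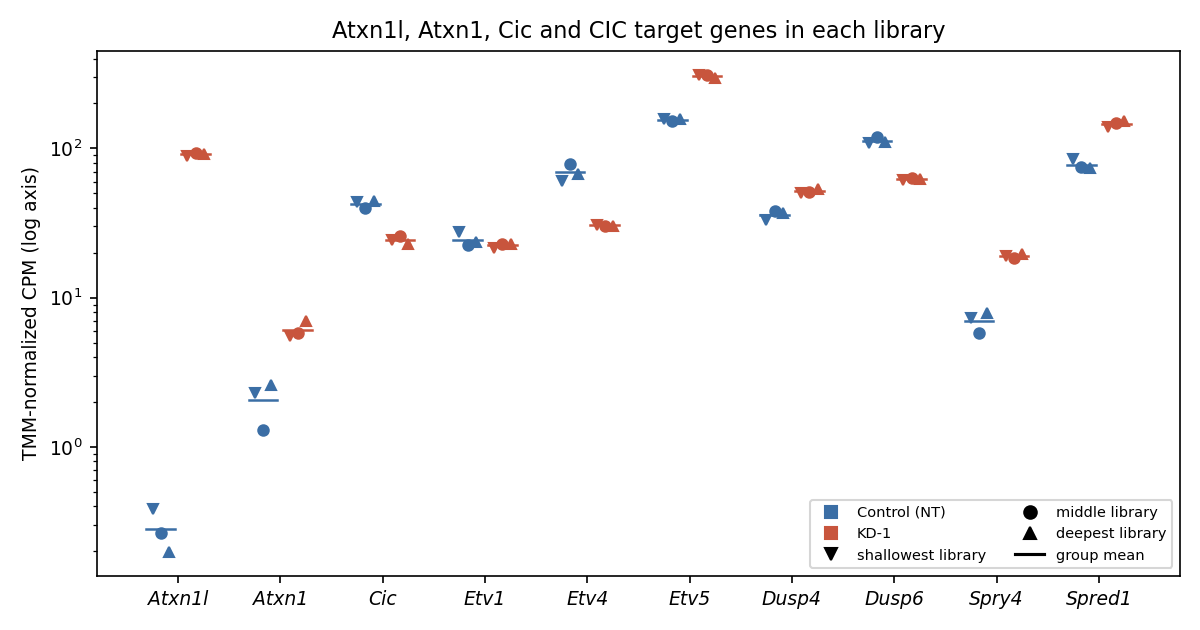
Level of each of the 10 genes in each library, in TMM-normalized CPM on a log axis, for 3 Control (NT) (blue) and 3 KD-1 (red) libraries, with the marker shape for depth and a line at the group mean. *Atxn1l* moved from below 1 to a mean of 91.4 CPM. For each of the other 9 genes the group means lay much closer together, and the groups overlapped for *Etv1*.

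*Atxn1l* (ENSMUSG00000069895, GRCm39 chr8:110435993-110464442, minus strand, protein coding) encodes ataxin-1-like, a paralog of ataxin-1 that binds CIC and stabilises it. It had 8, 9 and 11 counts in the Control (NT) libraries, which are 0.386, 0.266 and 0.199 CPM. Under KD-1 the counts were 3740, 4052 and 7970, or 89.2, 93.1 and 91.8 CPM. The transcript was thus barely detected in every Control (NT) library and abundant in every KD-1 library. Exact Clopper-Pearson 95% intervals of the Control (NT) levels, on unscaled CPM and covering counting error only, ran from 0.165 to 0.751, from 0.119 to 0.492 and from 0.0969 to 0.347. The means were 0.284 ± 0.0948 and 91.4 ± 1.99 CPM (SD, n = 3) for Control (NT) and KD-1, a 322-fold difference of the means and a log2 fold change of 8.46 (standard error 0.13). By absolute log2 fold change it ranked 35 among all 15110 genes tested.

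The annotated exons of *Atxn1l* overlap those of *Zfp821*, a zinc finger gene on the opposite strand, over 259 bp, or 2.96% of the exonic length of *Atxn1l*. Whether the counting used the strand is not stated in the sources used here, and without strand the division of the reads of the overlap is uncertain. Its level went the other way, from 27.2 ± 2.47 (SD, n = 3) to 15.0 ± 0.183 (SD, n = 3) CPM. *Zfp821* fell by 0.86 on the log2 scale (standard error 0.08), with an adjusted p of 3.3e-05 by edgeR's test. The sum of both genes was 27.5 ± 2.47 and 106 ± 1.82 CPM (SD, n = 3) for Control (NT) and KD-1, and the part of the shared bases in either level was not tested.

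*Atxn1* (ENSMUSG00000046876, GRCm39 chr13:45703231-46118484, minus strand), the founding member of the family, was a low transcript in both groups. Its level was 2.31, 1.30 and 2.62 CPM in Control (NT) and 5.51, 5.79 and 6.99 CPM in KD-1 libraries. All KD-1 libraries lay above all Control (NT) libraries, with the middle Control (NT) library lowest. The means were 2.08 ± 0.689 and 6.10 ± 0.785 CPM (SD, n = 3), a log2 fold change of 1.55 (standard error 0.24). Its exons share 2252 bp, or 15.5% of their length, with *Gmpr* on the opposite strand, a GMP reductase gene whose own level was 1.86 ± 0.427 and 2.36 ± 0.0629 CPM (SD, n = 3; log2 fold change 0.36, standard error 0.21, adjusted p = 0.17 by edgeR's quasi-likelihood test). Per kilobase of exon, *Atxn1l* supplied 19.3 ± 7.33% of the transcripts of both genes in Control (NT), and 96.1 ± 0.456% of them in KD-1 (SD, n = 3). The summed level of both was 0.176 ± 0.048 CPM per kb in Control (NT) and 10.8 ± 0.252 CPM per kb in KD-1 (SD, n = 3).

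*Cic* itself (ENSMUSG00000005442, GRCm39 chr7:24967095-24993584, plus strand), which encodes the HMG-box repressor, was lower in KD-1 libraries. It had 43.5, 39.9 and 44.8 CPM in Control (NT) and 24.3, 25.8 and 23.1 CPM in KD-1. The groups were well apart, and no library stood out. The means were 42.7 ± 2.55 and 24.4 ± 1.38 CPM (SD, n = 3), a log2 fold change of -0.81 (standard error 0.08). *Cic* and *Atxn1l* thus differed in opposite directions at the RNA level, and protein was not measured in these files. The 3′ end of *Cic* overlaps *Pafah1b3* by 9 bp. Exons of *Dusp6*, *Etv4* and *Etv5* overlap long non-coding RNA genes on the opposite strand that are not among the counted identifiers. *Gm56965* covers 20.2% of the exonic length of *Dusp6*, *Gm39392* 9.84% of that of *Etv4* and *Gm59753* 8.47% of that of *Etv5*. The part of these overlaps in the levels was not tested.

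The 3 PEA3 genes, which encode closely related ETS activators downstream of FGF receptors, each behaved differently. *Etv5* (ENSMUSG00000013089, GRCm39 chr16:22200052-22259662) had 156, 154 and 158 CPM in Control (NT) and 312, 310 and 296 CPM in KD-1. Its spread relative to its mean was the smallest of the 10 genes in Control (NT), and the KD-1 libraries all lay far above. The means were 155.9 ± 1.92 and 306.0 ± 9.06 CPM (SD, n = 3), a log2 fold change of 0.97 (standard error 0.05).

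*Etv4* (ENSMUSG00000017724, GRCm39 chr11:101660568-101676197) went the other way. Its level was 60.5, 79.2 and 67.3 CPM in Control (NT) and 30.8, 30.3 and 30.4 CPM in KD-1 libraries. The Control (NT) libraries were spread, with the middle library highest, while those of KD-1 were nearly equal. The means were 69.0 ± 9.46 and 30.5 ± 0.282 CPM (SD, n = 3), a log2 fold change of -1.18 (standard error 0.10).

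*Etv1* (ENSMUSG00000004151, GRCm39 chr12:38828851-38920483) showed no separation between the groups. Its level was 27.5, 22.7 and 23.4 CPM in Control (NT) and 21.7, 23.0 and 23.1 CPM in KD-1. The groups overlapped, and the shallowest Control (NT) library alone lay above the rest. The log2 fold change was -0.11 (standard error 0.09).

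Because *Etv5* and *Etv4* moved in opposite directions, the PEA3 family, per kilobase of exon, differed more in its makeup than in its sum. The summed level was 44.3 ± 2.63 CPM per kb of exon in Control (NT) and 52.0 ± 1.2 CPM per kb in KD-1 (SD, n = 3). In Control (NT), *Etv4* and *Etv5* supplied 49.0 ± 3.78% and 47.0 ± 3.19% of it. In KD-1, *Etv5* supplied 78.4 ± 0.517% and *Etv4* 18.5 ± 0.399%. *Etv1* supplied 3.98 ± 0.644% in Control (NT) and 3.11 ± 0.166% in KD-1. Not divided by length, the summed level of the family was 249 ± 5.74 CPM in Control (NT) and 359 ± 8.67 CPM in KD-1 (SD, n = 3). The shares, like those of the families below, were computed after the values of the single genes were known.

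**Figure D2:**
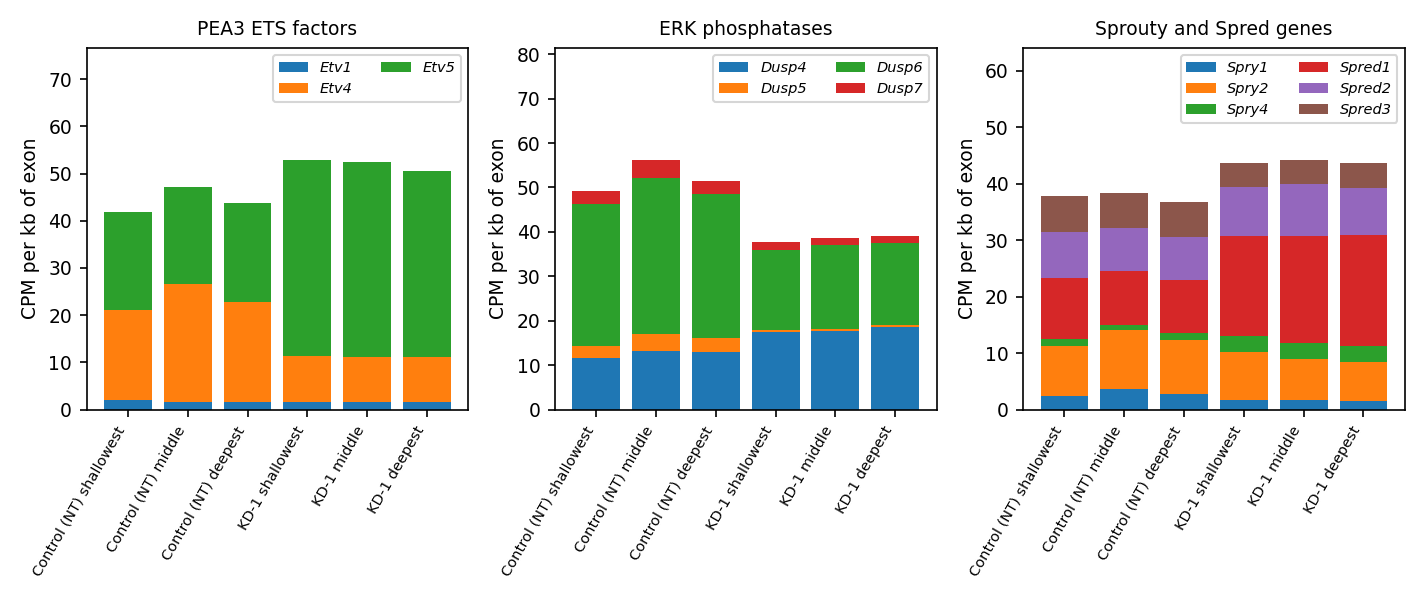
Stacked levels of the PEA3 factors, the ERK phosphatases, and the Sprouty and Spred genes in each of the 6 libraries, in TMM-normalized CPM per kb of exon, each bar starting at 0. *Etv5* (green) filled 78.4% of the PEA3 sum in KD-1 against 47.0% in Control (NT), *Dusp4* (blue) filled 46.6% of the phosphatase sum against 24.0%, and *Spred1* (red) filled 43.0% of the Sprouty and Spred sum against 26.5%.

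The dual-specificity phosphatases end ERK signalling by removing the activating phosphates, *Dusp6* in the cytoplasm and *Dusp4* in the nucleus. *Dusp6* (ENSMUSG00000019960, GRCm39 chr10:99086564-99103361), whose promoter held the 2 octamers shown above, had 108, 119 and 110 CPM in Control (NT) and 61.1, 63.8 and 62.4 CPM in KD-1 libraries. The lowest Control (NT) library was well above the highest of KD-1. The means were 112.3 ± 5.63 and 62.4 ± 1.38 CPM (SD, n = 3), a log2 fold change of -0.85 (standard error 0.06).

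*Dusp4* (ENSMUSG00000031530, GRCm39 chr8:35274442-35287048) had 33.04, 38.1 and 37.0 CPM in Control (NT) and 50.02, 51.1 and 53.5 CPM in KD-1. The groups did not overlap, but the difference was under the 1.5-fold threshold. The means were 36.1 ± 2.67 and 51.5 ± 1.78 CPM (SD, n = 3), a log2 fold change of 0.51 (standard error 0.07). The pair thus differed in opposite directions. Per kilobase of exon, *Dusp6* was 33.1 ± 1.66 against 12.5 ± 0.927 CPM per kb for *Dusp4* in Control (NT) (SD, n = 3). In KD-1 they were 18.4 ± 0.405 and 17.9 ± 0.618 CPM per kb (SD, n = 3), within the spread of the libraries. That closeness depends on the exon lengths used. Not divided by length, *Dusp6* stayed above *Dusp4* in KD-1, at 62.4 ± 1.38 against 51.5 ± 1.78 CPM (SD, n = 3).

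Sprouty and Spred proteins block the activation of RAS and RAF by receptor tyrosine kinases. *Spry4* (ENSMUSG00000024427, GRCm39 chr18:38719300-38736025) had 7.33, 5.80 and 7.89 CPM in Control (NT) and 19.1, 18.6 and 19.7 CPM in KD-1 libraries. The KD-1 libraries were nearly equal and all far above those of Control (NT). The means were 7.01 ± 1.08 and 19.1 ± 0.570 CPM (SD, n = 3), a log2 fold change of 1.44 (standard error 0.12).

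*Spred1* (ENSMUSG00000027351, GRCm39 chr2:116951524-117018277) had 84.5, 74.6 and 73.5 CPM in Control (NT) and 138, 148 and 152 CPM in KD-1. The groups were again apart, and the shallowest library was the highest in Control (NT) and the lowest in KD-1. The means were 77.5 ± 6.05 and 146.3 ± 7.39 CPM (SD, n = 3), a log2 fold change of 0.92 (standard error 0.07).

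The ataxin-1 genes therefore shared a direction, as did *Spry4* and *Spred1*. *Etv5* and *Etv4*, and likewise *Dusp4* and *Dusp6*, differed in opposite directions. Ranked by level per kilobase of exon in Control (NT), *Dusp6* led with 33.1 CPM per kb, ahead of *Etv4* with 21.8 and *Etv5* with 20.8, which did not differ beyond their spread. *Dusp4* (12.5), *Spred1* (9.99), *Cic* (4.13), *Etv1* (1.75) and *Spry4* (1.06) followed in order, each apart from the next, and *Atxn1* (0.143) and *Atxn1l* (0.0324) came last. In KD-1, *Etv5* led with 40.8 CPM per kb. *Spred1* (18.8), *Dusp6* (18.4) and *Dusp4* (17.9) could not be separated beyond their spread. *Atxn1l* came next with 10.4, just above *Etv4* with 9.62, followed by *Spry4* (2.90), *Cic* (2.36), *Etv1* (1.61) and *Atxn1* (0.421). *Atxn1l* moved from the last place to the fifth.

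The position of *Atxn1l* and *Cic* in the genome was examined next, to see whether genes beside them differed in the same way. Within 500 kb of *Atxn1l*, 11 of the 20 genes of the table were tested, 3 of them rose and 3 fell, beside 19.7% and 18.1% of all genes tested, and their median log2 fold change was -0.02. None of the 3 tested within 100 kb rose. *Ist1*, an endosomal sorting gene, had 117.8 ± 6.21 and 116.3 ± 1.15 CPM (SD, n = 3; log2 fold change -0.02, standard error 0.06, adjusted p = 0.79 by edgeR's quasi-likelihood test). *Ap1g1*, an adaptor subunit of the trans-Golgi network, had 113.2 ± 10.7 and 130.1 ± 2.60 CPM (SD, n = 3; log2 fold change 0.20, standard error 0.07, adjusted p = 0.04 by edgeR's test, under the 1.5-fold threshold). The third was *Zfp821*, described above. The difference at *Atxn1l* was thus not shared by its tested neighbours within 100 kb, although *Calb2*, a calcium-binding protein gene within 500 kb that was picked out after its value was seen, had a log2 fold change of 5.36.

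Around *Cic*, 25 of the 43 genes within 500 kb were tested, of which 14 fell and 1 rose, where 18.1% of all genes tested were lower and 19.7% higher, and the median log2 fold change was -0.77, near that of *Cic* (-0.81) and away from that of all genes tested (-0.01). Of the 10 tested within 100 kb, 5 were called, all lower, beside 37.7% called of all genes. *Pafah1b3*, a subunit of a platelet-activating factor hydrolase, fell from 46.9 ± 7.66 to 20.03 ± 1.08 CPM (SD, n = 3; log2 fold change -1.23, standard error 0.12, adjusted p = 3.1e-05 by edgeR's quasi-likelihood test). *Erf*, which encodes an ETS repressor that is itself a substrate of ERK, fell from 33.6 ± 3.19 to 15.5 ± 1.52 CPM (SD, n = 3; log2 fold change -1.12, standard error 0.10, adjusted p = 2.0e-05 by the same test). *Lipe* (-1.03) and *Pou2f2* (-0.98) fell likewise. *Gsk3a* (-0.53), *Dedd2* (-0.46), *Prr19* (-0.28) and *Zfp526* (0.26) were not called, nor was *Tmem145*, at 0.837 ± 0.176 and 0.413 ± 0.165 CPM (SD, n = 3). What the genes around *Cic* share was not tested, and neighbouring genes are not independent of each other.

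**Figure D3:**
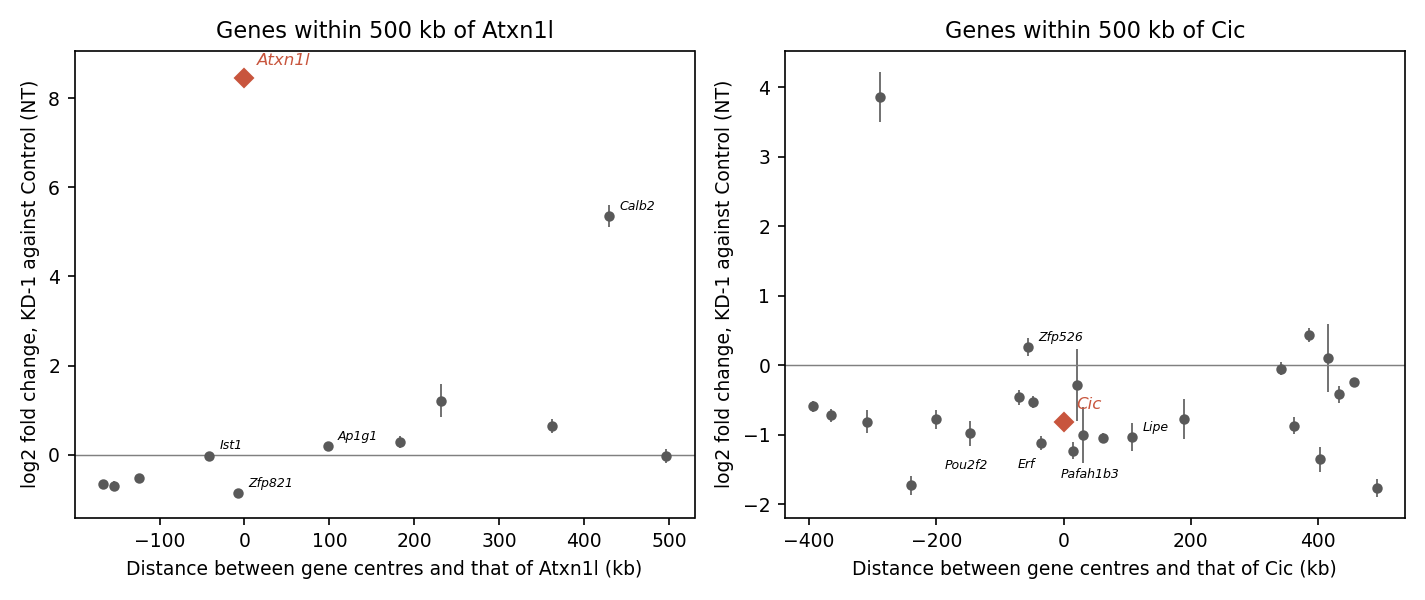
Log2 fold change of KD-1 against Control (NT), with standard errors, of the tested genes within 500 kb of *Atxn1l* (left) and *Cic* (right), against the distance between gene centres in kb, with the central gene as a red diamond and selected genes labelled. The nearest genes to *Atxn1l* lay between -0.86 and 0.20, while most genes around *Cic* lay below 0.

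The genes most like *Atxn1l*, *Cic* and *Etv5* over the 6 libraries were found by the root mean square distance between centred log2 profiles. For *Atxn1l* they were *Syce1* (distance 0.396), which was at 0 in all Control (NT) libraries and at 8.003 ± 0.859 CPM (SD, n = 3) in KD-1, *Sohlh2* (0.583) and *Dppa2* (0.615). For *Cic* they were *Hyou1* (0.0291), *Plcg1* (0.037) and *Pcnx3* (0.0387), and for *Etv5* they were *Klf10* (0.0299), *Efr3a* (0.0358) and *Pak1* (0.0375). The libraries fall into 2 groups, so the distance mostly compares the size of the group difference, and *Atxn1l*, with a difference that few genes match, had no near neighbour.

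Genes of the same pathway outside the 10 were then counted from lists written by function, but with earlier results of these data known. Each count is a description, given beside the 37.7% called among all genes tested. Of 21 tested partners of CIC and ataxin-1, 5 were called, 3 higher and 2 lower, with a median log2 fold change of 0.11. *Rps6ka3*, a kinase of the RSK family downstream of ERK, fell from 161.2 ± 17.04 to 83.8 ± 1.90 CPM (SD, n = 3; log2 fold change -0.94, standard error 0.08, adjusted p = 1.5e-05 by edgeR's quasi-likelihood test). *Rbpj*, the Notch pathway DNA-binding factor (0.70), and the 14-3-3 genes *Ywhag* (0.69) and *Sfn* (0.60) rose. The remaining 16, among them *Sin3a*, *Hdac1*, *Hdac2* and *Hdac3*, were not called.

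Among 16 tested further output and feedback genes of ERK signalling, 11 were called, against 37.7% of all genes: 6 rose and 5 fell, with a median of -0.10. *Egr1*, an immediate early gene, rose from 2.69 ± 0.235 to 7.71 ± 0.0944 CPM (SD, n = 3; log2 fold change 1.51, standard error 0.13, adjusted p = 1.5e-05 by edgeR's quasi-likelihood test). *Shc4* (1.35), the cyclin D1 gene *Ccnd1* (1.24) and *Epha4* (1.04) also rose. *Phlda1* fell from 20.8 ± 5.66 to 1.90 ± 0.226 CPM (SD, n = 3; log2 fold change -3.46, standard error 0.21, adjusted p = 2.1e-06 by the same test), and *Dusp5* (-2.66), *Myc* (-2.35) and *Dusp7* (-1.03) fell as well. Like the 10 genes, this list held large differences in both directions. Summed with *Dusp5* and *Dusp7*, the ERK phosphatases had 52.2 ± 3.62 CPM per kb in Control (NT) and 38.4 ± 0.717 CPM per kb in KD-1 (SD, n = 3), and the share of *Dusp6* was 63.4 ± 1.36% and 47.9 ± 0.806%. The sum of the Sprouty and Spred genes was 37.7 ± 0.872 and 43.9 ± 0.312 CPM per kb (SD, n = 3). In it *Spred1* had 26.5 ± 2.01% and 43.0 ± 2.15%, *Spry4* had 2.83 ± 0.494% and 6.61 ± 0.239%, and *Spry2* had 25.5 ± 1.84% and 17.1 ± 1.88% in Control (NT) and KD-1.

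In the cascade that links receptors to ERK, 1 of 24 genes rose and 3 fell, where 37.7% of all genes tested were called, and the median was 0.05. The groups did not overlap in 21 of the 24, against 70.6% of all genes tested. With no fold change threshold 17 of the 24 had an adjusted p under 0.05, 11 higher and 6 lower, as had 9597 of all 15110 genes. The MEK gene *Map2k2* (log2 fold change -1.14, standard error 0.15), the ERK gene *Mapk3* (-0.80, standard error 0.07) and the adaptor gene *Shc1* (-0.59, standard error 0.06) fell, and *Rasa2*, a RAS GTPase-activating protein gene, rose (0.59, standard error 0.15). This count rested on single libraries: it was 7 without the shallowest Control (NT) library, 4 higher and 3 lower, and 2 without the middle one, both lower. Of 16 tested ETS genes outside the PEA3 family, 8 were called (against 37.7% of all genes), 2 higher and 6 lower, with a median of -0.18. *Ets1* fell from 111.8 ± 3.90 to 3.36 ± 0.229 CPM (SD, n = 3; log2 fold change -5.04, standard error 0.08, adjusted p = 2.8e-09 by edgeR's quasi-likelihood test). *Fli1* (-3.70), *Elk3* (-1.49) and *Ets2* (-1.24) fell, and *Elk4* (1.02) and *Gabpa* (0.65) rose.

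No gene of the COP1 ubiquitin ligase, which degrades PEA3 proteins, was called among 7 tested by edgeR, beside 37.7% of all genes tested, and DESeq2 and limma-voom called 0 as well. For 5 of the 7 the fold change threshold alone prevented a call, since their adjusted p was under 0.05 (the same number had an unadjusted p under 0.05). Among all 15110 genes tested, 9597 had an adjusted p under 0.05. *Det1* (adjusted p = 0.82) and *Ddb1* (adjusted p = 0.47, both by edgeR's quasi-likelihood test) passed neither threshold. Among FGF ligands and receptors 7 of 10 tested genes were called (against 37.7% of all genes), 4 higher and 3 lower, with a median of 0.67. *Fgf15* (2.53), *Fgf17* (1.57), *Fgf4* (1.56) and *Fgf5* (1.36) rose, and *Fgf8* (-2.59), *Fgf18* (-2.19) and the receptor gene *Fgfr1* (-0.86) fell. Some of these ligands were low. *Fgf8* had 0.925 ± 0.236 CPM in Control (NT) and 0.148 ± 0.0685 CPM in KD-1 (SD, n = 3). *Fgf5* had 0.933 ± 0.184 and 2.38 ± 0.0468 CPM, and *Fgf17* had 1.14 ± 0.407 and 3.53 ± 0.415 CPM (SD, n = 3).

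**Figure D4:**
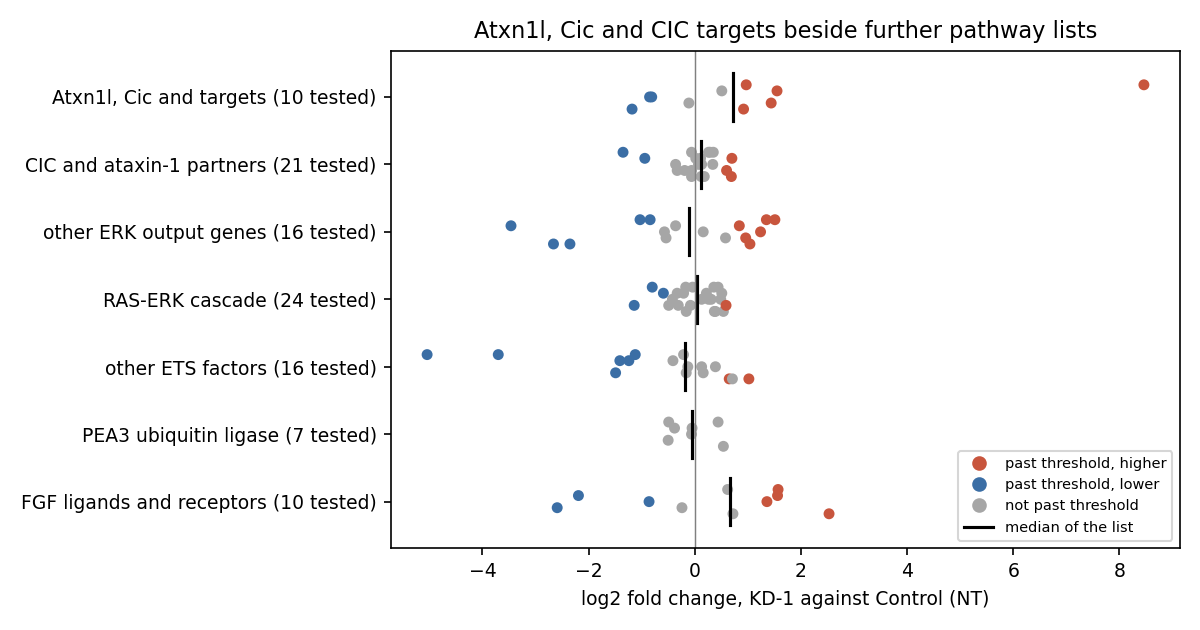
Log2 fold change of KD-1 against Control (NT) for each tested gene of the 10 genes described here and of the further pathway lists, 1 point per gene, red for higher and blue for lower past the threshold, grey for not past it, with a black line at the median of each list. Every list but that of the COP1 ligase held points past the threshold on both sides of 0, and *Atxn1l* at 8.46 lay far from all other points.

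Markers of the cell types that a gastruloid can hold moved with the same groups. The summed level of 10 naive pluripotency markers was 485 ± 23.2 CPM in Control (NT) and 1470 ± 21.2 CPM in KD-1 (SD, n = 3). Of these, 8 rose, against 19.7% of all genes tested, and *Tfcp2l1* was the most abundant in both. Of 10 markers of presomitic and somitic mesoderm, 9 were tested and all 9 fell, against 18.1% of all genes tested. Their sum was 551 ± 40.7 and 46.1 ± 0.28 CPM (SD, n = 3), with *Meox1* the most abundant in Control (NT) and *Pax3* in KD-1. *Msgn1*, at 0 in all KD-1 libraries, had only 0, 0 and 3 counts in Control (NT) and was not tested. Of 7 neural markers, 6 were tested and 4 rose (19.7% of all genes tested did), the sum being 46.8 ± 3.49 and 171 ± 2.32 CPM (SD, n = 3) and the most abundant *Pax6* in Control (NT) and *Tubb3* in KD-1.

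In the remaining lists, too, the counts stand beside 37.7% called among all genes tested, 19.7% higher and 18.1% lower. Of 8 markers of the caudal epiblast and tail bud 4 were called, 2 higher and 2 lower, a share near that of all genes, with sums of 59.7 ± 4.39 and 55.0 ± 2.25 CPM (SD, n = 3), led by *Cdx2* and *Nkx1-2*. Of 8 endoderm markers 5 were tested, 2 rose and 2 fell, with sums of 160 ± 14.5 and 308 ± 3.19 CPM (SD, n = 3), led by *Trh* in both groups. *Trh* alone had 130.4 ± 13.1 and 265.0 ± 4.45 CPM (SD, n = 3), and *Epcam* (log2 fold change 1.87) also rose. *Cer1* fell from 14.6 ± 0.651 to 0.0460 ± 0.0461 CPM (SD, n = 3), and *Foxa1* (-2.57) fell too. The sum thus mostly followed *Trh* and does not show a rise of the list. The other lists were low. Those of cardiac mesoderm summed to 7.77 ± 0.842 and 2.52 ± 0.162 CPM (3 of 4 tested fell, led by *Tnnt2* and *Mef2c*). Those of endothelium and blood summed to 18.3 ± 0.6 and 34.1 ± 1.08 CPM (2 rose and 2 fell of 4 tested, led by *Pecam1*). Most of that sum was *Pecam1*, at 14.5 ± 0.158 and 29.4 ± 1.07 CPM (SD, n = 3). *Tek* also rose, while *Kdr* and *Hbb-bh1* fell. Those of feeder fibroblasts summed to 36.0 ± 5.83 and 14.2 ± 0.933 CPM (4 of 5 tested fell, led by *Fbn1*). Of the markers at 0 in all KD-1 libraries, *Hbb-bh1* fell from 9, 17 and 28 counts in Control (NT). *Nkx2-5* (1, 0 and 3 Control counts), *Gata1* (0, 0 and 2), *Emcn* (3, 12 and 8), *Postn* (27, 7 and 30) and *Lum* (8, 14 and 1) were too low to be tested. The part of these cell type differences in the levels of *Atxn1l*, *Cic* and the CIC targets was not tested.

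**Figure D5:**
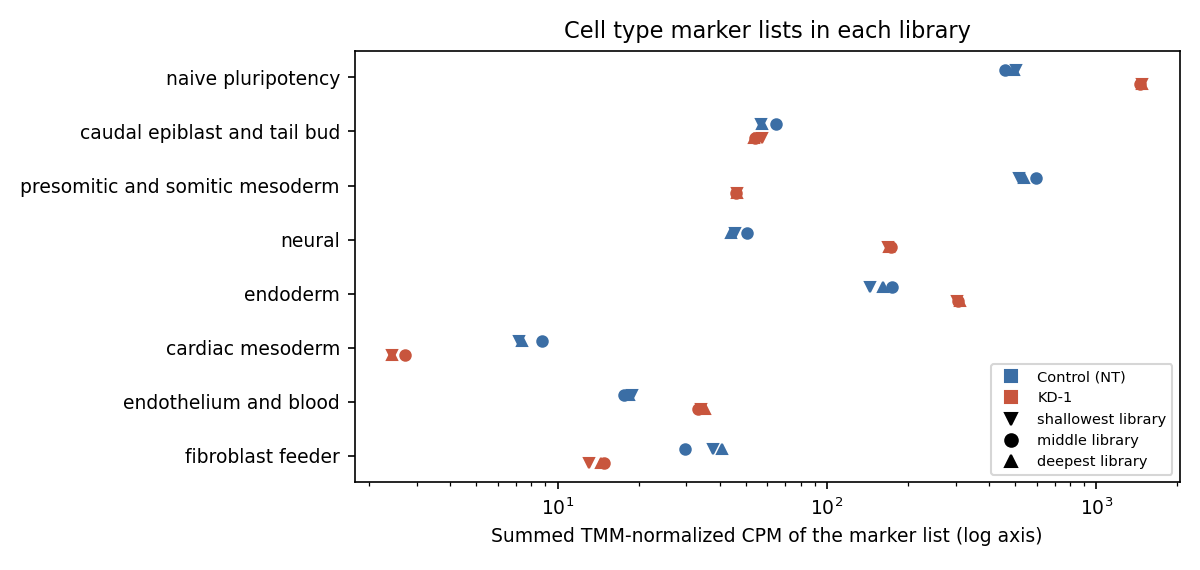
Summed TMM-normalized CPM of each cell type marker list in each of the 3 Control (NT) (blue) and 3 KD-1 (red) libraries, on a log axis. The naive pluripotency sum lay near 1470 in KD-1 against 485 in Control (NT), and the presomitic and somitic sum near 46.1 against 551, while the caudal epiblast and tail bud sums lay close together.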

How the data were processed

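Whole gastruloids were measured by bulk RNA sequencing, with 3 Control (NT) libraries and 3 from *T-UCstem1* KD-1. The authors prepared TruSeq libraries, sequenced them paired-end on a NextSeq 500, and quantified them with Salmon (version 1.1) on Gencode version 33, whose species series and build are not given in the sources used here. The authors deposited these estimated counts (expected counts) per Ensembl gene as whole numbers, without normalization. The way transcripts were summed and rounded, and whether strand was used, are not given either. Salmon divides reads between similar sequences, so counts of overlapping genes are uncertain. The authors' own comparison tables were not used.

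Names, positions and exon lengths came from GENCODE vM39 (GRCm39), which matched 35222 of 35565 identifiers, and promoters from RefSeq (GRCm38.p6). Counts were analysed with edgeR (version 4.0.16, R version 4.3.3): filterByExpr defaults, TMM (factors between 0.975 and 1.03), robust quasi-likelihood fit with the condition as the only term, Benjamini-Hochberg adjustment over 15110 genes. Levels per kilobase were divided by the union of annotated exons. For a single value, 3 against 3 libraries allow no two-sided exact permutation p below 0.1.

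The genes described and the lists were chosen with earlier results of these data known. Named outside the 10 genes were up to 4 called genes per list and direction with the largest change and a mean of at least 1 CPM in one group, the tested genes within 100 kb of *Atxn1l* or *Cic*, the 3 genes most like *Atxn1l*, *Cic* and *Etv5* (profiles with a prior count of 2), and the most abundant and absent markers. A few genes that these rules select are not reported here, though the counts include them. *Fgf8* and *Erf* are named outside the first of these rules. The called markers of endoderm and of endothelium and blood are named as well. On simulated counts with the same numbers of libraries (a log2 change of 1.5 in 200 genes, 14884 genes in the fit), edgeR found 177 of the 198 changed genes that passed its filter and made 13 false calls. Far more genes were called in the data (5704 of 15110), with changes of many sizes, so these rates may not carry over. The alternatives were DESeq2 (version 1.42.0), limma-voom (limma version 3.58.1), other normalizations and filters, other fold change thresholds, other motifs, and leaving out each library.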

Additional observations from a re-analysis of the deposited data

How the results depend on the processing

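The log2 fold changes of the 10 genes kept their direction and their side of the threshold under all 14 other fits (13 for *Atxn1l*, which was not testable at 10 counts in every library). They ranged from 8.18 to 8.65 for *Atxn1l*, from 1.29 to 1.80 for *Atxn1*, from -0.86 to -0.75 for *Cic*, from -1.27 to -1.08 for *Etv4*, from 0.96 to 1.03 for *Etv5*, from -0.88 to -0.79 for *Dusp6* and from 1.32 to 1.55 for *Spry4*. An absolute log2 fold change over 1 or no fold change threshold gave 3274 or 9597 called genes of all tested in place of 5704, 1 or 12 of the CIC and ataxin-1 partners in place of 5, and 1 or 17 of the RAS-ERK cascade in place of 4. The former gave 10 called neighbours of *Atxn1l* and *Cic* in place of 21, and the latter 5 genes of the COP1 ligase in place of 0, which became 1 with scaling by library size only. Leaving out 1 library gave 5176 to 6113 called genes, 2 to 7 of the cascade and 0 to 1 of the ligase. For the causes of these shifts, the thresholds act by their own construction, and the cause was not tested for the others. The octamers TGAATGAA and TGAATGGA alone matched the promoters of 0 of the genes, and the core TGAATG, added after seeing the data, those of 3, in place of 1. No paired analysis was run, because the columns carry no replicate numbers of the labels. Depth limits *Atxn1l* in Control (NT), which rests on 8 to 11 counts a library, and *Atxn1*, and 3 libraries from a single line per group limit every comparison.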
